A study of Mus musculus with 9 samples.

Results

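The Hox clusters are 4 groups of neighbouring homeobox genes that set position along the body axis. CTCF binding in them was taken from 8 CUT&RUN libraries of mouse splenic CD8+ T cells. CUT&RUN releases the DNA around an antibody-bound protein with a tethered nuclease, and each library came with its own list of CTCF peaks. A Hox region was any stretch of overlapping peaks, joined over the 8 libraries at 1 bp or more, that touched chr6:52050000-52300000 (HoxA), chr11:96000000-96300000 (HoxB), chr15:102700000-102950000 (HoxC) or chr2:74450000-74700000 (HoxD) in mm9. This gave 35 Hox regions of 39574 in all, with 10 in HoxA, 15 in HoxB, 3 in HoxC and 7 in HoxD. They are numbered here in order along the chromosome, so HoxA.3 is the third HoxA region by coordinate.

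Each of the 4 groups had 2 CTCF libraries. WT cells came from mice with wild-type Tcf1 and Lef1 and DKO cells (Tcf1-/-Lef1-/-) from mice with both genes floxed. Tcf1 and Lef1 are HMG-box transcription factors of T cells. By the design text, both kinds of mice carried hCD2-Cre, which drives recombination in lymphocytes, and a Rosa26-lsl-GFP reporter that marks cells in which Cre has acted. Cells were sorted as GFP+ TCRbeta+ CD62Lhi CD44lo-med CD8+, that is, as naive T cells, and were used at once (0 h, called naive below) or after culture for 72 h (called cultured) with IL-7 and IL-15, cytokines that sustain naive and memory CD8+ T cells. Live cells were used at both times, and the age and sex of the mice were not given in the labels used here. The labels do not say whether replicates came from separate animals, so the spread between libraries may be technical. Peak lists hold no expression, so the labelled cell type could not be checked against markers. The single IgG library, of WT cells at 0 h, had 5 peaks in the genome and 0 in the 4 windows.

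Hox genes encode transcription factors with a DNA-binding homeodomain. Within a cluster they lie in the order of their expression along the embryo, from anterior genes of low number to posterior genes of high number. CTCF, a zinc-finger protein that stops the extrusion of chromatin loops, binds several sites inside the clusters, and in embryonic cells such sites mark borders between active segments and segments silenced by Polycomb. In blood, Hoxa9 and Hoxa10 are known for their part in progenitors and in leukaemia.

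The 38 Hox genes listed for these clusters all had an entry in RefSeq (GRCm38.p6), which was used for names and neighbours alone. With rising coordinate, HoxA runs from Hoxa2, an anterior gene of the hindbrain, to Hoxa13, which patterns the limb end and genital tract. HoxB runs the other way, from Hoxb13 to Hoxb1, HoxC from Hoxc13 to Hoxc4, and HoxD from Hoxd13 to Hoxd1. An annotation of mm9 was not used here, so no region is assigned to a gene, and the sequences under the peaks are not shown. What could be examined was whether Hox promoters hold the letters of the CTCF core, CCANNAGNNGGC, on either strand. Of 24 promoter entries for 22 of the genes (250 bases before to 50 after the start), 0 held this motif, against 2.43% of all 32851 RefSeq promoters. With the third letter free (CCNNNAGNNGGC, which also takes every match of the first motif), 4 of the 24 did (16.7%), against 8.61% of all. These 4 stretches are shown because they match the looser motif. Motifs with any other letter free were not searched. They read 5′ to 3′ along the gene, with the matching letters in capitals, and the match lies on the gene's own strand in Hoxa11 and on the opposite strand in the other three:
Hoxa11: tgttgcttcCCCTGAGGTGGCtacaaagaa
Hoxc4: gcccacgggGCCCACTGGAGGccggagagg
Hoxd3: gctctagtcGCCGGCTGCGGGatcgcgtgg
Hoxd11: tgcagcgcaGCCTGCTCAGGGagtgccctg
In GRCm38.p6 they lie at chr6:52245975-52246004 (minus strand), chr15:103034313-103034342, chr2:74711990-74712019 and chr2:74682073-74682102 (plus strand). Hoxa11 and Hoxd11 act in the forearm and kidney, Hoxd3 in the axial skeleton, and Hoxc4 is the most anterior gene of its cluster. In Hoxd3 the match lies past the start site, in the other three before it. A match describes letters, and none of these 4 was tied to a peak. No promoter entry was used for Hoxa4, Hoxb2, Hoxb3, Hoxb5, Hoxb6, Hoxb7, Hoxb9, Hoxb13, Hoxc5, Hoxc6, Hoxc8, Hoxc9, Hoxc10, Hoxc11, Hoxc12 and Hoxc13.

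Naive cells held a CTCF peak at most Hox regions, and fewer regions had one after 72 h. WT cells had a peak at 29 and 28 of the 35 Hox regions at 0 h, and at 16 and 24 after 72 h. DKO cells had one at 24 and 27 at 0 h, and at 8 and 13 after 72 h. The whole lists were also shorter at 72 h. Of all 39574 regions, the WT libraries held 81.3% and 77.1% at 0 h and 42.8% and 65.9% at 72 h. The DKO libraries held 75.7% and 78.5% at 0 h and 25.6% and 40.0% at 72 h. The lists ran from 10339 peaks (DKO 72 h, replicate 1) to 32585 (WT 0 h, replicate 1). Over the 35 Hox regions the same libraries held 82.9%, 80.0%, 45.7% and 68.6% in WT and 68.6%, 77.1%, 22.9% and 37.1% in DKO, each within 8 percentage points of its genome share. When every list was reduced to its 10339 strongest peaks by the authors' p-value, the Hox regions found numbered 8 and 9 in naive WT, 6 and 6 in naive DKO, 8 and 9 in cultured WT and 8 and 8 in cultured DKO libraries. This reduction sets every library to 10113 to 10291 regions in all, whatever its full length.

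**Figure D1:**
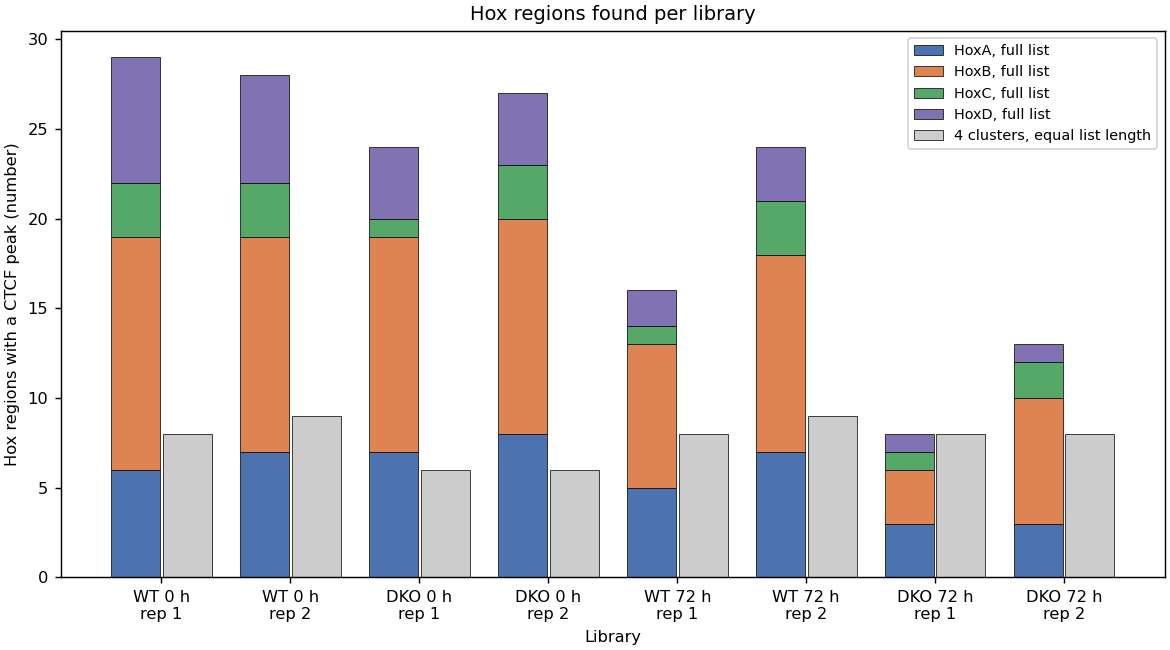
Number of Hox regions with a CTCF peak (vertical axis) in each of the 8 libraries. Stacked bars give the 4 clusters in the full lists, from 29 regions in WT 0 h replicate 1 to 8 in DKO 72 h replicate 1, and grey bars give the total after each list was reduced to its 10339 strongest peaks, from 6 to 9.

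The 4 clusters differed in how densely they were occupied. HoxB had 5.0 regions per 100 kb of window, HoxA 4.0, HoxD 2.8 and HoxC 1.2, beside 1.50 per 100 kb over the genome as far as the last peak of each chromosome. These densities depend on where the windows end. The HoxA regions lay in a block from HoxA.3 to HoxA.10, and the 95.5 kb before it held no peak back to HoxA.2. In HoxB the regions fell into a long series up to HoxB.12, then 96.4 kb without a peak, and then HoxB.13 to HoxB.15. HoxB.15 crosses the window's end by part of its width, and the next region, chr11:96302485-96304084, starts 2.48 kb outside and was found in 7 libraries with a fold of 4.85 to 16.0. The largest gap was 26.2 kb in HoxC and 33.6 kb in HoxD.

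**Figure D2:**
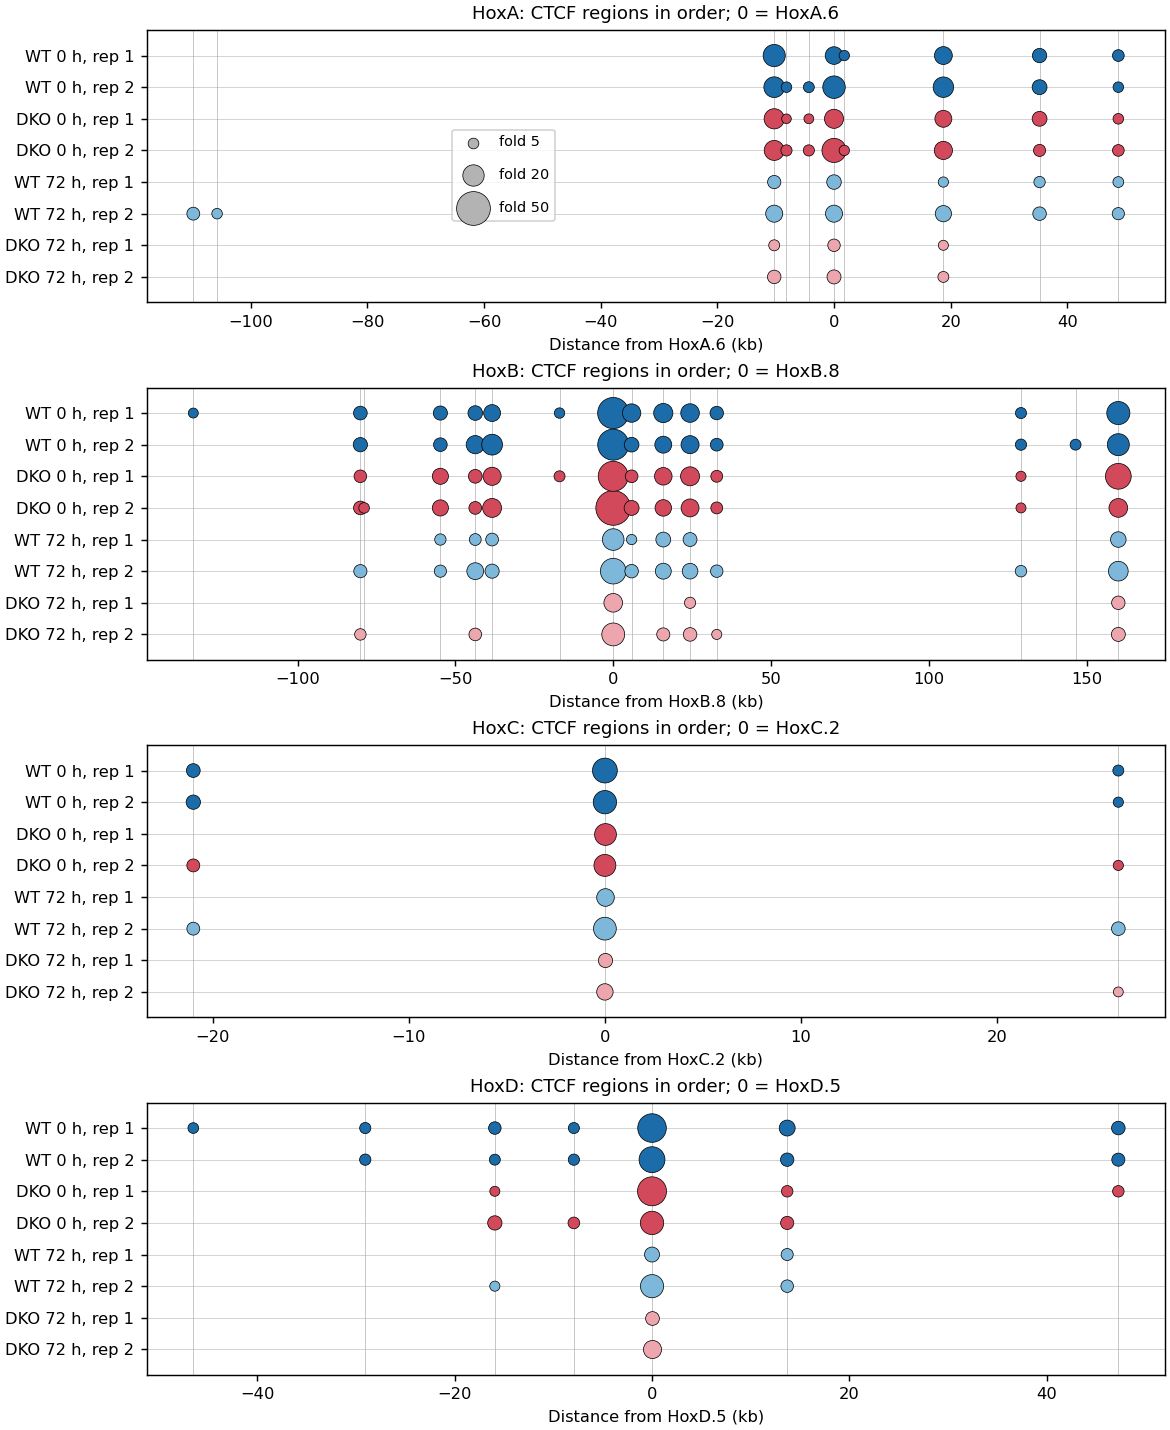
CTCF regions along each Hox cluster. The horizontal axis is the distance in kb from the region of highest mean fold found in all 8 libraries of that cluster (HoxA.6, HoxB.8, HoxC.2 and HoxD.5), each row is a library, and the area of a circle is in proportion to the authors' fold enrichment, from 4.07 to 52.9. Columns filled in all 8 rows are the regions found in every library, 3 in HoxA, 3 in HoxB, 1 in HoxC and 1 in HoxD.

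A peak was found in all 8 libraries at 8 of the 35 Hox regions (22.9%), beside 24.2% of all regions. In HoxB, HoxB.8 (chr11:96139782-96140610) was the strongest CTCF region of the 4 clusters. Its fold enrichment, the authors' value of signal over local background, was 42.5 and 42.1 in naive WT libraries and 39.4 and 52.9 in naive DKO libraries, then 20.4 and 28.8 in cultured WT and 15.2 and 22.9 in cultured DKO libraries. The 4 values at 0 h lay above the 4 at 72 h, while WT and DKO overlapped at both times. Fold values fell across whole lists, so each was also ranked among the 9591 regions found in all 8 libraries. HoxB.8 stood at the percentiles 89.3 to 96.6 at 0 h and 92.9 to 98.3 at 72 h, so its place among them overlapped between the times. The summits of its 8 peaks lay within 59 bp of each other.

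HoxD.5 (chr2:74539326-74541093) led the HoxD cluster. Its fold was 35.8 and 29.4 in naive WT libraries and 36.7 and 23.8 in naive DKO libraries, then 9.82 and 23.5 in cultured WT and 8.29 and 14.4 in cultured DKO libraries. At 72 h both replicate 1 libraries were the lower of their pair, and the 2 times did not overlap. Its percentile among the regions found everywhere was 50.5 to 86.1 at 0 h and 46.0 to 83.1 at 72 h. It was the widest of the 35 regions, at 1768 bp, and the only HoxD region with a peak in any DKO library at 72 h.

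HoxC.2 (chr15:102817422-102818476) was the single HoxC region found in all libraries. Its fold was 27.0 and 23.8 in naive WT libraries and 20.8 and 21.1 in naive DKO libraries, then 13.6 and 22.7 in cultured WT and 8.86 and 11.8 in cultured DKO libraries. Both WT libraries were above both DKO libraries at each time, and the times overlapped through WT replicate 2 at 72 h. At 0 h the WT libraries ranked it at the percentiles 66.0 and 62.5 and the DKO libraries at 42.2 and 39.5, and at 72 h at 76.3 and 80.8 in WT and 70.7 and 65.2 in DKO. The WT ranks were thus above the DKO ranks at each time. With 2 libraries against 2 an exact test cannot go below p = 0.333, so no test is given.

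HoxA held 3 regions found in all libraries, within 29 kb of each other. HoxA.3 (chr6:52160651-52162179) had a fold of 21.5 and 18.8 in naive WT libraries and 17.8 and 17.5 in naive DKO libraries, then 7.68 and 12.7 in cultured WT and 5.29 and 7.98 in cultured DKO libraries. HoxA.6 (chr6:52171020-52172593), 10.3 kb further on, had 13.6 and 22.2 in naive WT libraries and 16.0 and 25.5 in naive DKO libraries, then 9.24 and 12.7 in cultured WT and 6.82 and 8.57 in cultured DKO libraries. HoxA.8 (chr6:52190104-52190976), another 18.7 kb on, had 14.0 and 18.3 in naive WT libraries and 12.6 and 14.5 in naive DKO libraries, then 4.60 and 11.6 in cultured WT and 4.42 and 5.25 in cultured DKO libraries. All 3 were higher in every library at 0 h than at 72 h. HoxA.8 was nearest to the lowest listed fold of 4, and was the weakest of the 8 by mean fold. It ranked at the percentiles 1.0 to 20.9 at 72 h among regions found in all libraries, against 9.46 to 38.8 at 0 h. With a −log10 q of at least 5 required of each peak, the HoxA regions found in all libraries numbered 1 in place of 3. The HoxB regions then numbered 2 in place of 3. In lists of 10339 peaks each, HoxA and HoxB both had 2 in place of 3.

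The other HoxB regions found in all libraries were HoxB.11 and HoxB.15. HoxB.11 (chr11:96164075-96165026) had a fold of 15.1 and 14.3 in naive WT libraries and 15.8 and 14.1 in naive DKO libraries, then 8.46 and 10.7 in cultured WT and 5.51 and 8.05 in cultured DKO libraries. Its values at 0 h spanned the narrowest range of the 8 regions, and the times did not overlap. HoxB.15 (chr11:96299389-96300690) had 23.4 and 21.1 in naive WT libraries and 29.1 and 15.3 in naive DKO libraries, then 10.6 and 17.0 in cultured WT and 7.91 and 8.57 in cultured DKO libraries. DKO replicate 2 at 0 h lay below WT replicate 2 at 72 h, so the times overlapped. Without DKO 72 h replicate 1, the shortest list, the HoxB regions found in all remaining libraries numbered 5 in place of 3.

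Over these 8 regions, all 4 values at 0 h exceeded all 4 at 72 h at 6 (all but HoxB.15 and HoxC.2), beside 74.5% of the 9591 regions found in all libraries, and the reverse was seen at 0, beside 0.073%. With each fold divided by its own list's median, which ran from 7.03 to 10.4, this held at 3 of 8 (HoxA.3, HoxB.8 and HoxB.11), beside 60%. At 72 h both WT values exceeded both DKO values at 4 of 8 (HoxA.6, HoxB.11, HoxB.15 and HoxC.2), beside 50.6%, and the reverse was seen at 0, beside 0.146%. At 0 h WT was above DKO in this sense at HoxA.3 and HoxC.2 (2 of 8), beside 10.6%, and DKO above WT at 0 of 8, beside 33.2%. With each fold divided by its list's median, these were 2 of 8, beside 14.9%, and 0 of 8, beside 26.0%. Across regions found everywhere, naive values were thus more often higher in DKO, less so after this division. None of the 8 Hox regions showed that order.

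**Figure D3:**
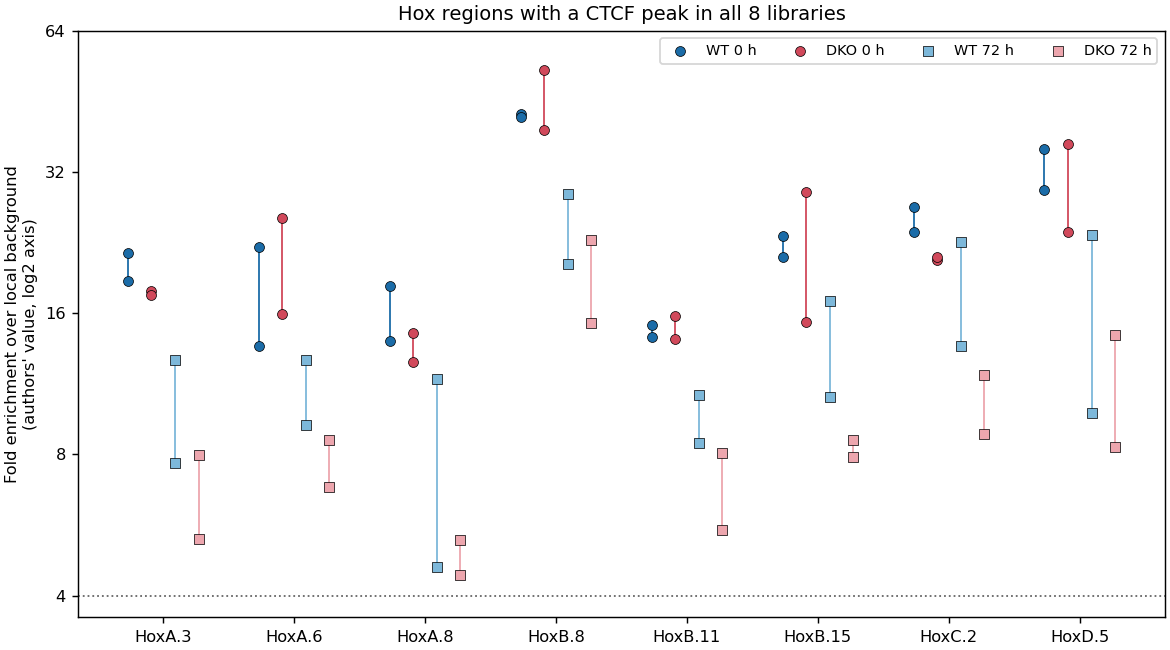
Fold enrichment (log2 axis) at the 8 Hox regions with a CTCF peak in all libraries. Points are libraries, joined within a group of 2, and the dotted line marks fold 4, the lowest listed. HoxB.8 has the highest value of each library. The values at 72 h lie below those at 0 h at all but HoxB.15 and HoxC.2, where single libraries overlap.

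Among Hox regions, those found in every library were mostly the strong ones of naive cells. Their mean fold at 0 h ran from 14.8 to 44.2. Another 12 regions with a peak in all 4 naive libraries were missing from at least 1 library at 72 h, and their mean fold at 0 h ran from 4.95 to 15.4. The spread of a region's summits over libraries had a median of 89.5 bp in the first set, with a maximum of 240 bp, and of 136 bp in the second, with a maximum of 312 bp. With summits required within 100 bp of the median summit, the HoxA regions found in all libraries numbered 1 in place of 3. Strength at 0 h went with presence over the genome too. Regions found in all 4 naive libraries were grouped by mean percentile of fold within those lists. Of those from percentile 75 up, 90.0% had a peak in DKO 72 h replicate 1, the shortest list, and of those under 25, 1.33%. In the Hox clusters 6 of 6 and 0 of 3 did.

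WT and DKO were compared in naive cells to ask where CTCF occupancy differs without Tcf1 and Lef1. A region was called when both libraries of one group and neither of the other had a peak. In WT alone 1 of 33 Hox regions tested was called, beside 5.03% of all regions tested, and in DKO alone 0 of 33, beside 2.81%. The called region was HoxD.2 (chr2:74510931-74511285), with a fold of 5.49 and 5.60 in WT, no peak in DKO and none at 72 h. Both values are close to the lowest listed fold. With a −log10 q of at least 5, 0 of 24 Hox regions tested were called in WT alone, beside 5.07%. In DKO alone 0 were called, beside 2.94%. HoxC.1, HoxC.3 and HoxD.4 had peaks in both WT libraries and in DKO replicate 2 alone, HoxD.7 in both WT libraries and DKO replicate 1 alone, and HoxA.4 and HoxA.5 in both DKO libraries and WT replicate 2 alone. With summits required within 100 bp of the region's median summit, 2 of 32 Hox regions tested were called in WT alone, beside 6.05%. In DKO alone 2 of 32 were called, beside 3.4% of all regions tested. Leaving out 1 library lets its partner decide alone, which raises counts over the whole genome. Hox regions called in WT then numbered 2 of 31 tested (WT replicate 1 out) and 3 of 32 (WT replicate 2 out), beside 8.04% and 9.5% of all regions tested. They numbered 2 of 33 (DKO replicate 1 out) and 4 of 32 (DKO replicate 2 out), beside 7.48% and 8.38%. Those called in DKO numbered 2 of 32 with WT replicate 2 out, beside 4.35%, and 1 of 33 with DKO replicate 1 out, beside 7.7%.

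Among cultured cells, 6 of 24 Hox regions tested (25.0%) had peaks in each WT library and in no DKO library, beside 9.53% of all regions tested, and 0 had the reverse, beside 0.0454%. They were HoxA.9 and HoxA.10, HoxB.4, HoxB.6 and HoxB.9, and HoxD.6. All 6 had a peak in all 4 naive libraries, both DKO libraries included. In lists reduced to the 10339 strongest peaks, as many as in the shortest of the 4 lists, 10 Hox regions were tested and 0 were called in WT alone, beside 3.42% of all regions tested, and 0 in DKO alone, beside 3.14%. None of the 6 regions is among those left in any of the 4 reduced lists, so their calls could not recur there, and list length and genotype cannot be told apart. With a −log10 q of at least 5 the count was 2 of 22 Hox regions tested, beside 9.72% of all regions tested. With summits within 100 bp of the median summit it was 4 of 24, beside 9.37%. Without WT replicate 1, the shorter WT list, it was 11 of 24, beside 38.9%.

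Among the 6 regions, HoxB.6 (chr11:96101149-96102120) was the strongest, with a fold of 12.5 and 18.9 in naive WT libraries and 14.4 and 15.7 in naive DKO libraries, then 7.14 and 8.75 in cultured WT libraries. HoxB.9 (chr11:96145376-96146479) had 14.8 and 9.46 in naive WT libraries and 7.08 and 9.78 in naive DKO libraries, then 4.64 and 8.01 in cultured WT libraries. WT values at 72 h were below all 4 naive values at HoxB.6, and overlapped them at HoxB.9. HoxB.4 (chr11:96084909-96085733) had 8.75 and 8.15 in naive WT libraries and 11.4 and 11.4 in naive DKO libraries, then 5.64 and 6.54 in cultured WT libraries. At this region both DKO values at 0 h lay above both WT values, yet no DKO peak was listed at 72 h.

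HoxA.9 and HoxA.10 end the HoxA series. HoxA.9 (chr6:52206374-52207755) had a fold of 9.0 and 9.67 in naive WT libraries and 9.66 and 6.44 in naive DKO libraries, then 5.64 and 8.01 in cultured WT libraries. HoxA.10 (chr6:52220161-52221117) had 6.05 and 4.89 in naive WT libraries and 4.93 and 6.01 in naive DKO libraries, then 5.14 and 6.54 in cultured WT libraries. At HoxA.10 the WT values at 72 h were within or above the range of the naive values. HoxD.6 (chr2:74553747-74554278) had 11.1 and 7.82 in naive WT libraries and 5.79 and 7.63 in naive DKO libraries, then 6.39 and 6.91 in cultured WT libraries. At this region both naive WT values lay above both naive DKO values, the nearest pair being 7.82 and 7.63.

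In WT cells the times were compared to ask what culture with the cytokines changes. Peaks in each naive and in no cultured WT library were found at 3 of 34 Hox regions tested (8.82%), beside 14.2% of all regions tested. The reverse was found at 0, beside 0.634%. All 3 were in HoxD, on both sides of HoxD.5. HoxD.2 is given above, HoxD.4 (chr2:74532299-74532826) had a fold of 5.37 and 5.54 in WT and 6.01 in DKO replicate 2 at 0 h, and HoxD.7 (chr2:74587319-74587713) had 8.07 and 7.50 in WT and 5.79 in DKO replicate 1 at 0 h. None of them had a peak in any library at 72 h. In lists of 17335 peaks each, 0 of 18 Hox regions tested were called at 0 h alone, beside 5.55%, and 0 at 72 h alone, beside 4.91%. None of the 3 regions was left in any of these reduced lists. Hox regions called in naive cells numbered 6 of 30 and 7 of 31 with naive replicate 1 or 2 left out, beside 20.4% and 23.6%. With cultured replicate 2 left out they numbered 9 of 32, beside 34.4% of all regions tested. Those called in cultured cells numbered 2 of 34 with cultured replicate 1 left out, beside 4.52%.

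In DKO cells, 10 of 29 Hox regions tested (34.5%) had peaks in each naive and in no cultured library, beside 33.8% of all regions tested, and 0 had the reverse, beside 0.135%. The share in Hox clusters was thus near that of the genome. These were the 6 regions above that had kept a peak in WT, together with HoxA.4, HoxA.5, HoxB.13 and HoxD.3. HoxA.4 (chr6:52162897-52164064) had a fold of 4.07 and 5.48 in DKO and 4.89 in WT replicate 2 at 0 h, and HoxA.5 (chr6:52167116-52167924) had 4.24 and 5.48 in DKO and 5.21 in WT replicate 2. Both lie between the strong regions HoxA.3 and HoxA.6, and neither had a peak at 72 h. The summits of HoxA.4 lay up to 683 bp apart, the widest spread of the 35 regions, and whether they mark a single site was not tested. HoxB.13 (chr11:96269119-96269519) had 5.37 and 5.54 in naive WT libraries and 4.50 and 4.40 in naive DKO libraries, then 5.80 in replicate 2 of cultured WT cells. HoxD.3 (chr2:74523962-74524719) had 6.89 and 5.26 in naive WT libraries and 4.41 and 8.99 in naive DKO libraries, then 4.50 in replicate 2 of cultured WT cells. In both, the single peak at 72 h came from the longer WT list. In lists of 10339 peaks each, 9 Hox regions were tested, none of them among the 10. Of these, 0 were called at 0 h alone, beside 7.16%, and 1 at 72 h alone, HoxB.11, beside 5.45%. HoxB.11 has a peak in all 8 full lists, so this call rests on its rank within the lists. With a −log10 q of at least 5 the count at 0 h was 6 of 22 Hox regions tested, beside 37.0% of all regions tested. With summits within 100 bp of the median summit it was 7 of 27, beside 29.6%. With peaks joined at 50% of the shorter peak it was 9 of 30, beside 33.6%.

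The fate of naive sites can be given over both genotypes. Of the 20 Hox regions found in all 4 naive libraries, 16 and 20 had a peak in the WT libraries at 72 h (80.0% and 100%), beside 65.2% and 86.9% of the 24438 such regions in the genome. In DKO 8 and 12 had one (40.0% and 60.0%), beside 40.9% and 62.7%. The 5 HoxA regions of this kind were found in full in both WT libraries, and 3 of them in each DKO library. Of the 11 HoxB regions, 8 and 11 were found in WT and 3 and 7 in DKO, and of the 3 HoxD regions 2 and 3 in WT and 1 and 1 in DKO. The base of 20 regions needs a peak in both naive DKO libraries. It leaves out HoxD.2, HoxD.4 and HoxD.7, which had no WT peak at 72 h. Of the 25 Hox regions found in both naive WT libraries, 16 and 22 had a WT peak at 72 h. The WT shares were thus 64% and 88%, beside 58.0% and 81.3% of all such regions. In HoxD, 2 and 3 of 6 had one. Of the 22 found in both naive DKO libraries, 8 and 12 had a DKO peak at 72 h. These were 36.4% and 54.5%, beside 36.9% and 57.0%. The difference between genotypes in these shares was not tested.

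**Figure D4:**
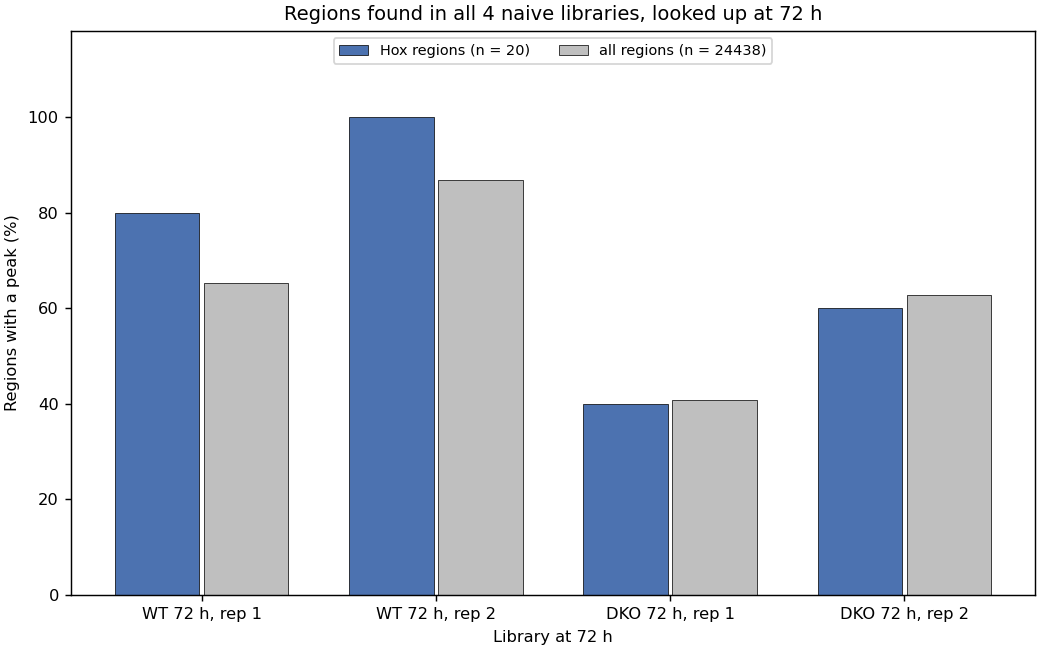
Share of the regions found in all 4 naive libraries that had a CTCF peak in each library at 72 h, in percent, for the 20 Hox regions and all 24438 regions. In WT the Hox bars (80.0% and 100%) stand above the genome bars, and in DKO (40.0% and 60.0%) they stand slightly below. Regions missing from any naive library, HoxD.2, HoxD.4 and HoxD.7 among them, are not counted.

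Presence was also tested over all 8 libraries, 4 against 4, by Fisher's exact test (two-sided, on each region) with Benjamini-Hochberg adjustment over 39574 regions. For genotype, 0 of 35 Hox regions had an adjusted p under 0.05 and 0 an unadjusted one, beside 0% and 0.51% of all regions. For time the counts were 0 and 0 as well, beside 0% and 7.59%. The smallest p that 4 libraries against 4 allow is 0.0286, and the lowest adjusted p of any region in the genome was 0.376 for time, so no region could pass. No Hox region had a peak in all 4 naive libraries and no library at 72 h.

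The remaining regions were weak or seen in part of the libraries. HoxB.5 and HoxB.10 were found in 7 libraries, all but DKO 72 h replicate 1, and HoxB.2 and HoxB.12 in 6, all 4 naive libraries and replicate 2 of both genotypes at 72 h. HoxC.1 was found in 4 libraries, HoxC.3 in 5, and HoxA.7 and HoxB.7 in 2. Peaks of a single library numbered 6 (17.1% of the 35 regions), beside 14.7% of all regions, and had a fold of 4.36 to 7.27. They were HoxB.1 and HoxD.1 in WT 0 h replicate 1, HoxB.14 in WT 0 h replicate 2, HoxB.3 in DKO 0 h replicate 2, and HoxA.1 and HoxA.2 in WT 72 h replicate 2. HoxA.1 (chr6:52061864-52062148, fold 7.27) and HoxA.2 (chr6:52065744-52066378, fold 4.88) were the only Hox regions without a peak in a naive library, and the other WT library at 72 h lacked them. A peak at 72 h was missing at 11 of 35 (31.4%), beside 33.2% of all regions, and none of their peaks exceeded a fold of 8.07.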

How the data were processed

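CTCF CUT&RUN peak lists in narrowPeak format were used, 1 per library. The submitters' processing notes name Bowtie2 2.2.5 and MACS2 2.1.1 and the build mm9, and the sources used here give neither the control, the thresholds nor the read depth. The deposited fold column (a ratio) is the authors' enrichment over local background, and no CTCF peak is listed under a fold of 4. The deposited −log10 values (of p and of q) and the summit offset are those of the authors' peak caller, and their deposited score column was not used. The fold describes peaks within a list. Where a library had several peaks in a region, the one of lowest p was taken.

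Peaks on chromosomes 1 to 19 and X were joined over the 8 lists at an overlap of 1 bp (Python 3.11.15, pandas 2.3.3, scipy 1.17.1). Merging and calling were run on simulated, evenly spaced peaks, where 200 of 200 planted regions of 39574 were found for WT against DKO at 0 h. Planted peaks were set present or absent outright, so their recovery follows from the calling rule. It checks the code alone, and false calls were not counted. An absent peak shows only that none was listed. The Hox windows, members and lists were chosen with earlier results of these data known. In full are named the 3 regions per cluster of highest mean fold found in all libraries, every called region and every region of 1 library where a cluster has at most 3. The looser promoter motif was chosen after the first gave no match. Alternatives tried were lists cut to equal length, a −log10 q of 5 or more, summits within 100 bp, an overlap of 50% of the shorter interval for presence or for joining, single libraries left out, a block by replicate number and regions wholly inside a window.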

Additional observations from a re-analysis of the deposited data

How the results depend on the processing

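Read depth is unknown, so an absent peak shows only that none was listed. At equal list length 0 Hox regions were called for WT only at 72 h (beside 3.42% of all regions tested), against 6 in the full lists. For 0 h only they numbered 0 in WT (beside 5.55%), against 3, and 0 in DKO (beside 7.16%), against 10. For 72 h only in DKO 1 was called (beside 5.45%), against 0. None of the 6, 3 or 10 regions was left in the reduced lists, so none could be called there. With all 8 lists cut to 10339 peaks, 2 HoxA and 2 HoxB regions were found in all libraries, against 3 of each. With a −log10 q of at least 5, Hox regions called numbered 0 for WT only at 0 h (beside 5.07%) and 2 for WT only at 72 h (beside 9.72%). For 0 h only in DKO they numbered 6 (beside 37%), and 1 HoxA region and 2 HoxB regions were found in all libraries. With summits within 100 bp, 2 regions were called in WT only (beside 6.05%) and 2 in DKO only (beside 3.4%) at 0 h. For WT only at 72 h they then numbered 4 (beside 9.37%). For 0 h only they numbered 4 in WT (beside 15.4%) and 7 in DKO (beside 29.6%). At 72 h only in WT, 1 was called (beside 1.05%), and 1 HoxA region was found in all libraries. Leaving out single libraries gave 2 to 4 (WT only, beside 7.48% to 9.5% of all regions tested) and 0 to 2 (DKO only, beside 4.35% to 7.7%) at 0 h. At 72 h it gave 6 to 11 (WT only, beside 10.1% to 38.9%) and 0 to 0 (DKO only, beside 0.0646% to 1.11%). In WT it gave 3 to 9 (0 h only, beside 14.7% to 34.4%) and 0 to 2 (72 h only, beside 0.703% to 4.52%). In DKO it gave 10 to 14 (0 h only, beside 34.4% to 50.7%) and 0 to 0 (72 h only, beside 0.168% to 0.486%). It gave 3 to 3 in HoxA, 3 to 5 in HoxB, 1 to 1 in HoxC and 1 to 1 in HoxD for regions found in all libraries, and 0 to 0 for both Fisher counts. An overlap of 50% of peak or region changed nothing by construction, since a peak lies inside its region. Joining at 50% of the shorter peak and keeping regions wholly inside a window, both chosen after seeing the data, moved no count by over 1.5 times.

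A replicate block, in which the peak had to be in one group and not the other within each replicate number, gave the same 1, 6, 3 and 10 called regions and the same counts of 0, which follows from the definition. The exact test within replicate number gave 0 Hox regions for genotype and 0 for time, and its smallest possible p is 0.0556. Over the 9591 regions found in all libraries, log2 fold differences between replicates 1 and 2 were hardly correlated between groups (r from 0.0136 to 0.0417 for 6 pairs of groups). This r cannot see a shift of a whole list. At 72 h replicate 1 was the shorter list in WT (17335 against 26630 peaks) and in DKO (10339 against 16234). At 0 h it was the longer list in WT (32585 against 30967) and the shorter in DKO (30309 against 31392). The labels state no pairing.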
